A study of Mus musculus with 3 samples.

Results

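Limb bud mesenchyme was divided by the transcript of Lmx1b, the LIM-homeodomain factor of the dorsal limb, and the 2 resulting sets of cells were compared within each library. Members were the cells of the authors' cluster 0, the mesenchyme, with at least 4000 unique molecular identifiers (UMIs, which count each captured RNA molecule once). Cells with at least 2 Lmx1b UMIs are called Lmx1b-positive and cells with 0 are called Lmx1b-negative. Cells with exactly 1 were left out. Of 43950 cells in the series, 34236 lay in the mesenchyme cluster, 24722 of them passed the depth limit, and 2450 were Lmx1b-positive, 18210 Lmx1b-negative and 4062 left out. The 2 sides therefore held 20660 cells. Because the cells were chosen by their number of Lmx1b UMIs, the level of Lmx1b is described and not tested, and its row was removed before any fit.

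The cells came from forelimb buds of wild-type mouse embryos, profiled by droplet single-cell RNA sequencing. There was 1 reaction for each combination of stage and strain, per the labels: B6_E9.5 and B6_E10.5 are strain c57bl6.J at those embryonic days, and 129_E9.5 is strain 129S6.sv at the earlier day. They do not say how many embryos a reaction pooled. Each library contributed 1 sum of UMIs per side, and the library was a block in the fit, so that the 3 libraries were the replicates of a contrast made inside each of them. The p-values accordingly set that contrast against its spread over 3 libraries that also differ in stage and strain. A gene's own spread had 2 residual degrees of freedom and was drawn towards a spread pooled over genes, with 13.1 prior degrees of freedom. The p-values thus lean mostly on the pooled spread. A sum cannot separate more expressing cells from more RNA per cell.

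In the vertebrate limb, dorsal ectoderm secretes Wnt7a, which induces Lmx1b in the mesenchyme beneath it. Ventral ectoderm expresses En1, which represses Wnt7a, so that Lmx1b stays restricted to the dorsal side. Lmx1b then gives dorsal cells their identity, including the pattern of dorsal muscles, tendons and joints and the path of motor axons, and its loss in the mouse produces limbs with ventral structures on both sides. Lmx1b lies on chromosome 2 from 33560965 to 33640511 on the minus strand (GRCm38, GENCODE M21).

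The share of Lmx1b-positive cells was 24.2% in B6_E9.5 (1549 of 6400 cells, exact 95% interval 23.2 to 25.3), 2.82% in B6_E10.5 (291 of 10310, 2.51 to 3.16) and 7.61% in 129_E9.5 (610 of 8012, 7.04 to 8.22). After every cell was thinned to 4000 UMIs they were 4.28%, 0.786% and 1.82% in the same order. B6_E9.5 had the highest share in both readings and B6_E10.5 the lowest. With 1 library per stage and strain, these differences have no replicate check. Intervals here and below cover counting error only.

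Lmx1b stood at 164, 215 and 222 CPM (UMIs per 1000000 UMIs of the side) in the positive cells, listing B6_E9.5, then B6_E10.5, then 129_E9.5, values that the rule itself sets. Just outside the threshold, the cells with 1 UMI stood at 66.6, 118 and 109 CPM. At least 1 Lmx1b UMI was found in 47.3%, 13.0% and 26.8% of mesenchyme cells of the 3 libraries, at median depths of 15609.5, 6997 and 7883 UMIs. In endothelium, which should lack the gene, the shares were 2.99%, 1.92% and 2.86% at 17035, 9210 and 8062 UMIs, so that the mesenchymal shares lay above this background at lower or like depth. At least 2 UMIs were found in 0% of endothelial cells of B6_E9.5 and of B6_E10.5 (upper limits for 3 counts 0.599% and 0.641%) and in 0.521% of those of 129_E9.5. In muscle cells at least 1 UMI was found in 5.58%, 2.16% and 2.58% of the 3 libraries, at 12890, 8511 and 7862 UMIs. At least 2 were found in 1.20%, 0.160% and 0.344% of muscle cells. Ectoderm is described at the end.

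Positive cells were deeper than negative cells in all 3 libraries. The median depth of B6_E9.5 was 19335 UMIs on the positive and 12378 on the negative side. It was 9711 and 6851 UMIs at E10.5, and 9797 and 7539 UMIs for strain 129. In B6_E9.5, 67.1% of positive but 39.5% of negative cells had more than 16000 UMIs. Median mitochondrial shares were 3.34% and 3.53%, 3.41% and 3.66%, and 2.58% and 2.70% on the positive and negative sides. The plot of Lmx1b classes shows that depth rises from 0 to 1 to at least 2 UMIs in every library. The same contrasts in thinned and in depth-limited cells are given with the results. Of the cells of both sides, 793 carried a barcode that also occurs in another library. Without all cells of shared barcodes the counts of changed genes were 361 higher and 413 lower (2.90% and 3.31% of 12469 genes).

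**Figure D1:**
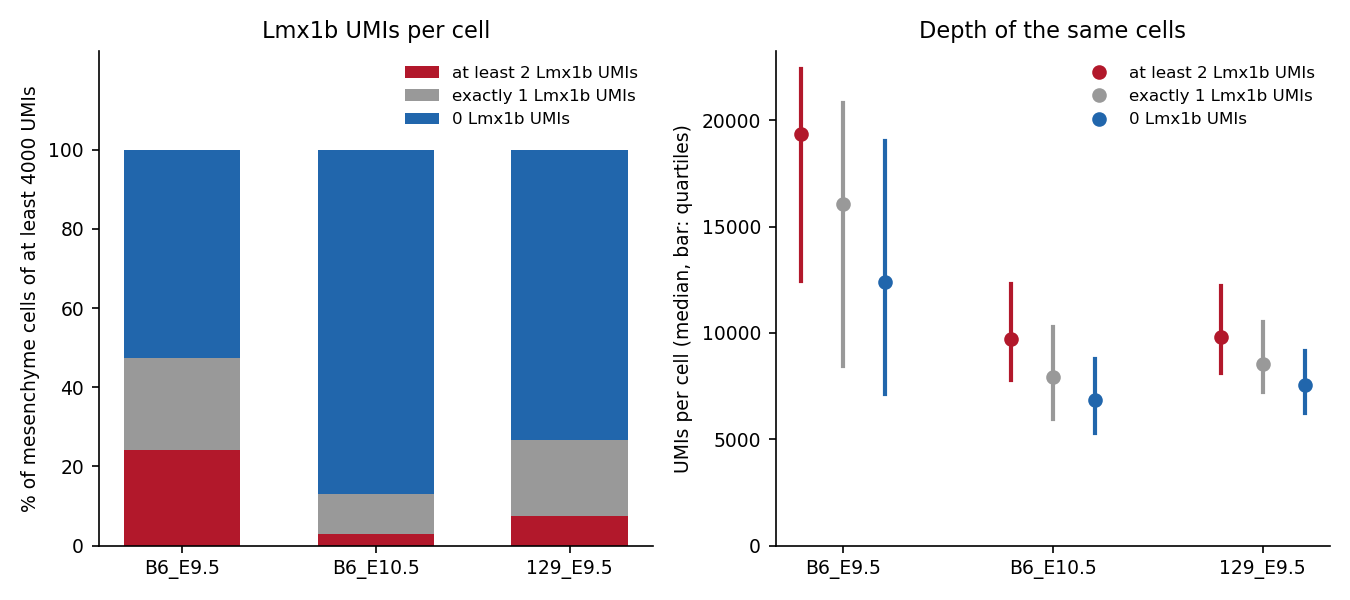
Left, share (%) of mesenchyme cells of at least 4000 UMIs with at least 2 (red), exactly 1 (grey) or 0 (blue) Lmx1b UMIs in each library. Right, UMIs per cell of the same classes, with the median as a point and the quartiles as a bar. Positive cells make up 24.2% of B6_E9.5 and 2.82% of B6_E10.5, and their median depth is above that of negative cells in each of the 3 libraries.

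Both sides carried the markers of limb mesenchyme. The summed level of 13 such genes without Lmx1b, among them Prrx1, Tbx5 and Shox2, was 2800 CPM in positive and 2495 CPM in negative cells of B6_E9.5, 2720 and 2397 CPM in B6_E10.5, and 2600 and 2648 CPM in 129_E9.5. The data hold no position in the bud, so "dorsal" rests on Lmx1b alone. Muscle progenitor markers summed to at most 37.4 CPM and endothelial markers to at most 43.0 CPM on any side. Erythroid markers were at 946 and 1056 CPM, 285 and 286 CPM, and 434 and 445 CPM on the positive and negative sides of the 3 libraries. Surface ectoderm markers summed to 14.96 against 35.1 CPM, 33.99 against 33.8 CPM and 19.4 against 27.8 CPM. Of 10 tested, 0 were higher and 3 lower on the positive side, Krt8, Krt18 and En1 (median log2 fold change -0.43). Krt8 and Krt18 changed by -2.70 and -2.32, and the calls of Krt18 and En1 were lost with DESeq2. Without cells holding flank or mesothelium markers (below), 0 of 10 were higher and 1 lower (Krt8), with a median of -0.12. The part of ectodermal RNA in these falls was not tested.

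Of 12516 genes tested with edgeR's quasi-likelihood test, 345 were higher (2.76%) and 384 lower (3.07%) in Lmx1b-positive mesenchyme at a Benjamini-Hochberg adjusted p under 0.05. Of these 729 genes, 664 moved the same way in 3 of 3 libraries. Higher genes were mostly well expressed with moderate changes: only 30 rose by 2-fold or more, 27 of them below a mean of 20 CPM. Lower genes reached further, with 135 falling by 2-fold or more, 128 of them below 20 CPM. The ranges of the 2 sides over the 3 libraries did not overlap for 189 genes above (1.51%) and 227 below (1.81%). Without B6_E9.5 the counts were 229 higher and 202 lower (1.87% and 1.65% of 12242), and without B6_E10.5 432 higher and 660 lower (3.45% and 5.28% of 12510). Without 129_E9.5 they were 281 and 367 (2.20% and 2.87% of 12768). DESeq2 called 149 higher and 132 lower (1.19% and 1.05%), and its losses among the genes described are given with them.

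The genes with the largest rise were led by inhibitors and targets of secreted signals. Grem1, a secreted antagonist of BMPs that relays between the polarizing region and the ridge, was at 31.5 CPM in positive and 10.1 CPM in negative cells of B6_E9.5, 57.2 and 28.0 CPM in B6_E10.5, and 21.4 and 11.6 CPM in 129_E9.5. It was higher in 3 of 3 libraries, by 1.26 ± 0.11 (log2 fold change ± SE, edgeR adjusted p = 6.52e-06), although the negative cells of B6_E10.5 lay above the positive cells of 129_E9.5. Its gene lies on chromosome 2 from 113746164 to 113758646. Apcdd1, a membrane inhibitor of WNT signalling that is itself a WNT target, was at 100.7 against 47.9 CPM, 25.9 against 11.6 CPM and 45.0 against 23.7 CPM in the same order of libraries. Its rise of 1.05 ± 0.06 (edgeR adjusted p = 1.44e-07) lay between 1.90-fold and 2.23-fold in the single libraries.

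Axin2, the feedback inhibitor of the beta-catenin destruction complex and the most used readout of canonical WNT signalling, was at 65.0 against 37.9 CPM in B6_E9.5, 38.7 against 22.6 CPM in B6_E10.5 and 32.3 against 17.1 CPM in 129_E9.5. It was higher in all 3 libraries, by 0.82 ± 0.06 (edgeR adjusted p = 1.86e-06), from 1.71-fold to 1.89-fold. Its gene lies on chromosome 11 from 108920349 to 108950783. Fzd10, a WNT receptor, was at 59.7 against 32.4 CPM, 35.0 against 21.3 CPM and 40.9 against 29.3 CPM, and the lowest positive value lay above the highest negative one. Nkd2, an inhibitor of Dishevelled, was at 24.6 against 16.9 CPM, 76.7 against 42.3 CPM and 42.5 against 27.9 CPM. The log2 fold changes were 0.74 for Fzd10 and 0.66 for Nkd2.

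Transcription factors formed a further group among the largest rises. Cdx1, a caudal-type homeobox factor that responds to WNT and retinoic acid, was at 67.3 against 29.1 CPM in B6_E9.5, 2.69 against 0.784 CPM in B6_E10.5 and 18.0 against 10.8 CPM in 129_E9.5. The rise of 1.11 ± 0.10 (edgeR adjusted p = 4.34e-06) thus sat on a level that was low in the later library on both sides. Tfap2c, an AP-2 factor, was at 54.5 against 23.7 CPM, 19.2 against 10.7 CPM and 75.9 against 46.2 CPM (log2 fold change 0.97). Tbx15, a T-box factor, was at 19.3 against 8.27 CPM, 71.7 against 54.5 CPM and 24.1 against 16.5 CPM (0.74). Dach1, a transcriptional cofactor expressed in the outgrowing bud, was at 38.2 against 24.9 CPM, 35.0 against 18.6 CPM and 30.2 against 19.3 CPM (0.69), with no overlap of the sides.

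The remaining 5 genes of this group were cell surface and signalling genes. Efnb2, the transmembrane ephrin that binds EphB receptors and EphA4, was at 54.3 against 34.1 CPM, 31.6 against 15.3 CPM and 22.7 against 14.1 CPM, a rise of 0.75 ± 0.07 (edgeR adjusted p = 1.61e-05). Socs2, a feedback inhibitor of cytokine and growth hormone signalling, was at 137 against 73.9 CPM, 131 against 50.5 CPM and 81.7 against 54.9 CPM, with every positive value above every negative one. The gene a, which encodes the agouti signalling protein, was at 55.7 against 35.8 CPM, 89.5 against 47.5 CPM and 103 against 64.8 CPM. Jaml, a junctional adhesion molecule (log2 fold change 0.97), and Tril, a Toll-like receptor accessory protein (0.69), were also higher in 3 of 3 libraries, although Jaml missed the threshold with DESeq2. Tril did not overlap between the sides, at 179 to 235 CPM against 107 to 139 CPM.

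**Figure D2:**
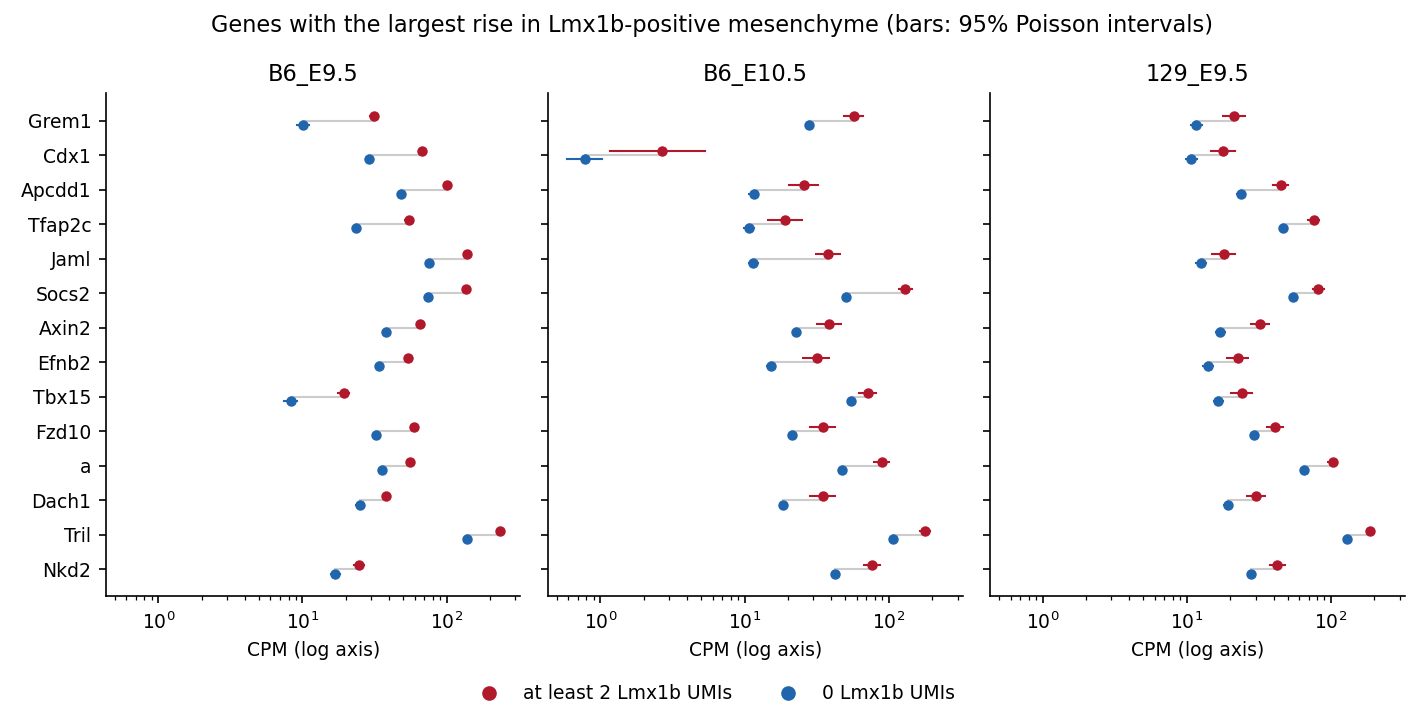
Level in CPM (log axis) of the 14 genes with the largest rise, in cells with at least 2 Lmx1b UMIs (red) and with 0 (blue), 1 panel per library. Bars are 95% Poisson intervals. The red point lies to the right of the blue one for all 14 genes in each of the 3 libraries, from Grem1 (10.1 to 31.5 CPM in B6_E9.5) to Nkd2.

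Likeness to Lmx1b was measured as the smallest of the 3 log2 ratios of positive over negative CPM, among genes of at least 20 CPM. The 5 most like genes were Apcdd1 (0.93), Grem1 (0.88), Axin2 (0.77), Cdx1 (0.74) and Tfap2c (0.72). All 5 were also among the 14 largest rises, an overlap that is largely built in because both rankings use the same sums.

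The largest falls held transcription factors and genes of the extracellular space. Gsc, the homeobox factor goosecoid, was at 3.0 CPM in positive and 14.9 CPM in negative cells of B6_E9.5, 46.1 and 90.2 CPM in B6_E10.5, and 4.84 and 22.8 CPM in 129_E9.5. It was lower in 3 of 3 libraries, by -1.68 ± 0.17 (log2 fold change ± SE, edgeR adjusted p = 1.99e-05), to 0.201, 0.511 and 0.213 of the negative level. Without B6_E10.5 the change was -2.29. Its gene lies on chromosome 12 from 104471209 to 104473330. Ebf1, a helix-loop-helix factor of mesenchymal and lymphoid lineages, was at 8.16 against 27.8 CPM, 39.0 against 64.2 CPM and 7.03 against 21.8 CPM, a fall of -1.40 ± 0.14 (edgeR adjusted p = 1.32e-05). Its relatives Ebf2 and Ebf3 were lower too (log2 fold changes -1.77 and -1.36), again in each library, each at a mean under 20 CPM.

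Tgfb2, a TGF-beta ligand, was at 25.5 against 73.1 CPM, 37.0 against 53.9 CPM and 23.0 against 51.1 CPM in the 3 libraries. Sfrp1, a secreted WNT antagonist, was at 21.2 against 74.7 CPM, 46.4 against 55.8 CPM and 52.5 against 99.0 CPM. Ptn, a heparin-binding growth factor, was at 531 against 1178 CPM, 734 against 1011 CPM and 538 against 888 CPM. For these 3 genes the highest positive value lay below the lowest negative one, with log2 fold changes of -1.21, -1.18 and -0.79 (edgeR adjusted p = 8.18e-06, 0.000305 and 1.61e-05). Sfrp1 missed the threshold with DESeq2 (adjusted p = 0.370). Cdkn1c, an imprinted inhibitor of the cell cycle, was at 106 against 207 CPM, 631 against 854 CPM and 160 against 263 CPM (log2 fold change -0.71). Itm2a, a membrane protein of differentiating cartilage and muscle, was at 15.9 against 30.4 CPM, 141 against 266 CPM and 48.0 against 93.3 CPM (-0.93). The log2 ratio of Itm2a lay between -0.96 and -0.91 in the 3 libraries, at levels that differed widely between stages.

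The other falls of this size were Jun, the AP-1 factor (log2 fold change -1.10), Tenm4, a teneurin of the cell surface (-0.96), Dok4, an adaptor protein (-0.92), Alx1, an aristaless-like homeobox factor (-0.83), Mdfi, an inhibitor of myogenic factors (-0.78), Col25a1, a membrane collagen (-0.72), and Runx1t1, a corepressor (-1.09). For Alx1 the sides were level in B6_E10.5, at 9.76 CPM on both, and differed in the E9.5 libraries, at 36.7 against 66.6 CPM and 18.0 against 37.1 CPM. Runx1t1 rested on B6_E9.5, where it was at 3.48 against 21.3 CPM. Without that library its change was -0.26 (edgeR adjusted p = 0.176), and without B6_E10.5 it was -1.95. With DESeq2 its adjusted p was 0.847.

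**Figure D3:**
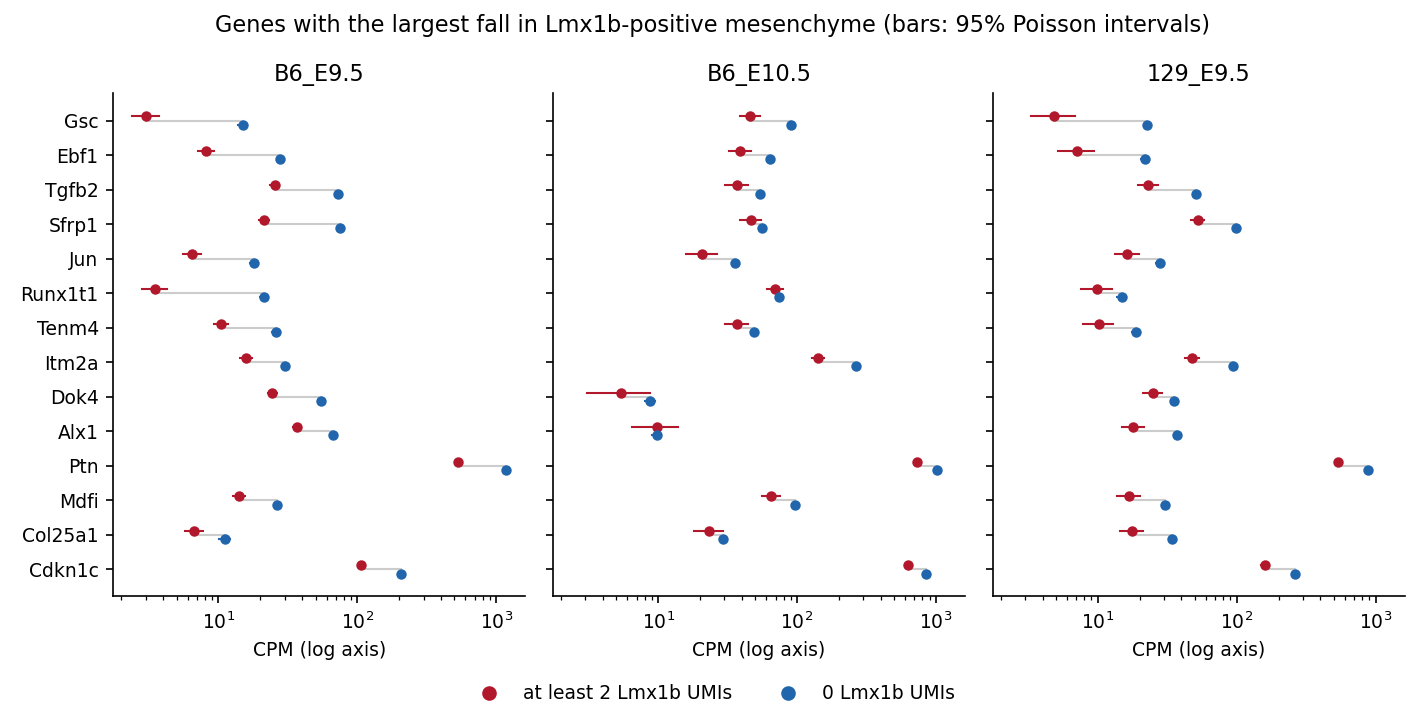
Level in CPM (log axis) of the 14 genes with the largest fall, in cells with at least 2 Lmx1b UMIs (red) and with 0 (blue), 1 panel per library. Bars are 95% Poisson intervals. Gsc, Ebf1 and Runx1t1 are farthest apart in B6_E9.5, and Alx1 (9.76 CPM on both sides) and Runx1t1 nearly coincide in B6_E10.5.

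Levels were also read across the number of Lmx1b UMIs, including the cells with 1 UMI that neither side held. Of the 14 risers, all 14 were higher in 1-UMI than in 0-UMI cells in each of the 3 libraries, and 14 (B6_E9.5), 12 (B6_E10.5) and 10 (129_E9.5) were higher again at 2 UMIs. Of the 14 fallers, 14, 12 and 14 were lower at 1 than at 0 UMIs, and 14, 13 and 11 lower again at 2. In B6_E9.5, Apcdd1 stood at 47.9, 74.1, 94.1, 100.6 and 113 CPM in cells with 0, 1, 2, 3 and at least 4 Lmx1b UMIs, and Gsc at 14.9, 7.48, 3.52, 3.42 and 1.58 CPM. The genes were chosen because cells with 0 and with at least 2 UMIs differ, and both steps of these counts reuse those cells, so that the order is largely set by the choice of genes and is given as a description. Depth rose over the same classes, from a median of 12378 UMIs at 0 to 16074 at 1 and 17866 at 2.

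**Figure D4:**
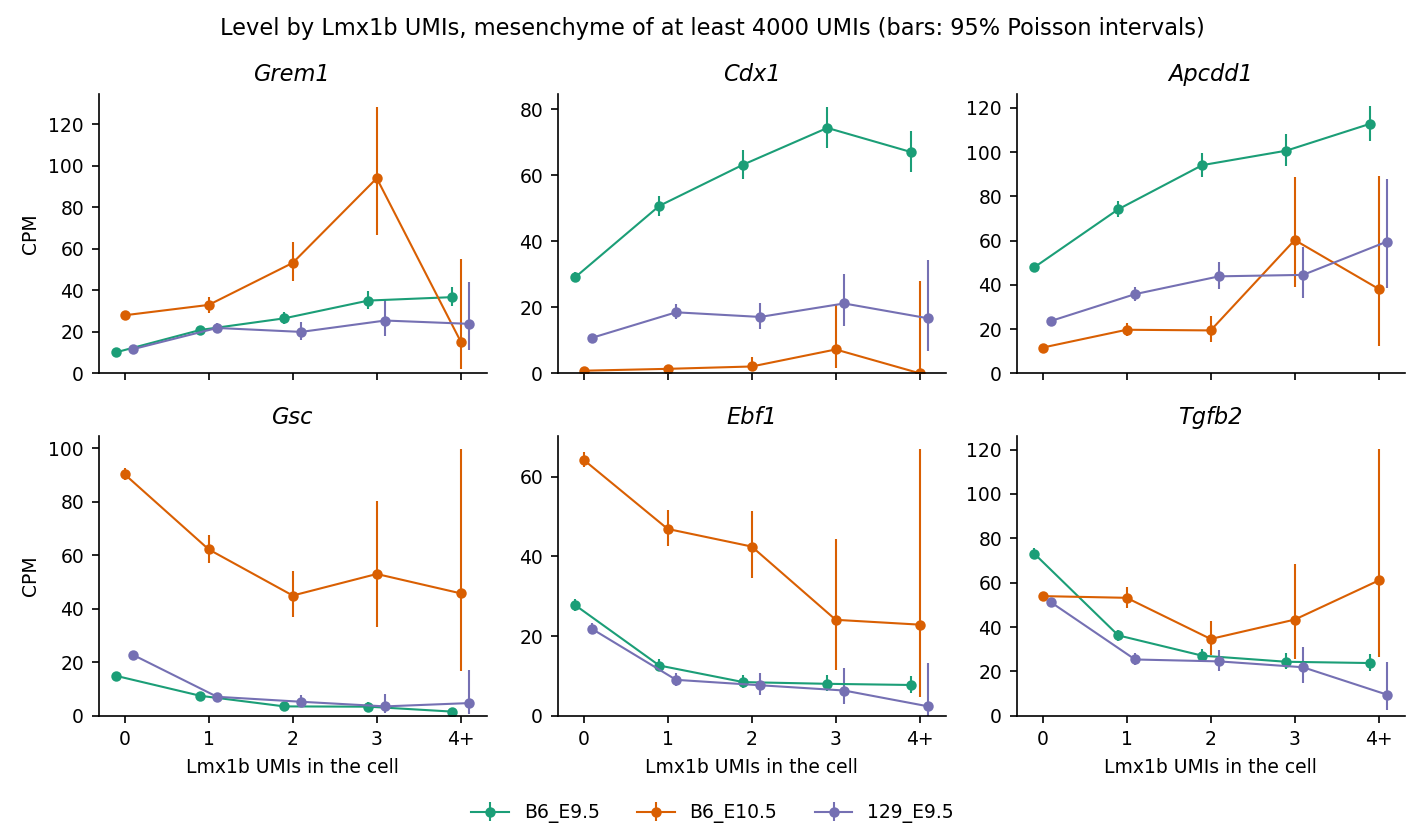
Level in CPM of Grem1, Cdx1 and Apcdd1 (top, risers) and of Gsc, Ebf1 and Tgfb2 (bottom, fallers) in mesenchyme cells with 0, 1, 2, 3 and at least 4 Lmx1b UMIs, 1 line per library. Bars are 95% Poisson intervals, which are wide above 2 UMIs in B6_E10.5. In B6_E9.5 Apcdd1 climbs from 47.9 to 113 CPM and Gsc falls from 14.9 to 1.58 CPM.

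Among 23 tested genes of WNT response and antagonists (26 listed), 9 were higher and 4 lower, with a median log2 fold change of 0.09 against 0.01 over all genes tested. The higher ones were Axin2, Apcdd1 and Nkd2 (above) with Nkd1, Lef1, Tcf7, Notum, Lgr4 and Wif1. Nkd1, a Dishevelled inhibitor like Nkd2, was at 151 against 97.7 CPM, 84.1 against 52.2 CPM and 85.5 against 59.5 CPM (log2 fold change 0.62, edgeR adjusted p = 1.86e-06). Wif1 and Notum, which block WNT ligands outside the cell, were higher by 1.16 and 1.00, each at a mean under 20 CPM. The nuclear partners of beta-catenin Tcf7 and Lef1 were higher by 0.56 and 0.17. Lef1 missed the threshold without any 1 of the libraries (edgeR adjusted p from 0.0854 to 0.118). The lower ones were the antagonists Sfrp1, Dkk1 and Shisa2 (-1.18, -1.79 and -0.74) and Tcf7l2 (-0.54). With DESeq2 7 were higher and 2 lower, and the calls of Lef1, Lgr4, Sfrp1 and Dkk1 were lost (adjusted p = 0.228, 0.0773, 0.370 and 0.548). After thinning and reassignment 3 of 22 were higher (Axin2, Nkd1 and Apcdd1) and 2 lower (Dkk1 and Sfrp1).

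Of 24 tested WNT ligands and receptors (33 listed) 2 were higher and 3 lower (median -0.08). Fzd10 (above) and the R-spondin gene Rspo4 (0.45) were higher. Rspo4 was at 49.9 against 39.3 CPM, 21.9 against 13.0 CPM and 46.1 against 33.3 CPM. Rspo2 was lower by -1.86 ± 0.25 (edgeR adjusted p = 0.000205), at 4.17 against 21.3 CPM in B6_E9.5 and 5.16 against 15.3 CPM in 129_E9.5 but 7.40 against 5.58 CPM in B6_E10.5. R-spondins amplify WNT signalling by stabilising its receptors, and in limb buds Rspo2 is known from the ridge. Without B6_E9.5 the change of Rspo2 was -0.96, and after thinning and reassignment it was -0.86 (edgeR adjusted p = 0.289). With DESeq2 it was -1.21, and the call was lost (adjusted p = 0.789). Wnt5a, the ligand of distal mesenchyme, was at 29.0 against 37.5 CPM, 88.2 against 87.9 CPM and 26.4 against 27.5 CPM, a change of -0.17 ± 0.07 that missed the threshold (edgeR adjusted p = 0.222).

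Of the dorsoventral patterning list, 1 of 12 tested genes was higher and 3 lower (median -0.33). Msx1, a homeobox factor of undifferentiated mesenchyme, was at 389 against 265 CPM in B6_E9.5, 367 against 200.5 CPM in B6_E10.5 and 387 against 316 CPM in 129_E9.5. All positive values lay above all negative ones, a rise of 0.56 ± 0.07 (edgeR adjusted p = 7.48e-05). The lower genes were Rspo2, Dkk1 and En1, and none of these 3 was called with DESeq2, by which 0 genes of the list were lower at an adjusted and 2 at an unadjusted p under 0.05. Dkk1, an inhibitor of WNT co-receptors, was at 3.44 against 18.1 CPM, 13.5 against 12.5 CPM and 3.75 against 13.97 CPM, lower in both E9.5 libraries only, with a fitted change of -1.79 that was -0.92 without B6_E9.5. En1, the gene of ventral ectoderm, was counted at most at 2.35 CPM on either side of the mesenchyme, and its call (-1.41, edgeR adjusted p = 0.0417) was lost without B6_E9.5. Wnt7a was at 0.269 CPM or less and was not tested. Ldb1, the cofactor that LIM-homeodomain proteins need, did not pass the test (0.02 ± 0.06, edgeR adjusted p = 0.931).

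Of 13 LIM-homeodomain genes and partners, 2 were higher and 0 lower (median 0.07). Lhx9, a relative of Lhx2 in the distal bud, was at 293 against 200.3 CPM, 244 against 202 CPM and 350.4 against 288 CPM (log2 fold change 0.39 ± 0.05, edgeR adjusted p = 0.000242). Lhx2 was at 145 against 106 CPM, 94.6 against 80.3 CPM and 165 against 178 CPM, and its change of 0.22 missed the threshold. Lmo2, a LIM-only protein, was higher by 0.46, a call that was lost without B6_E9.5 and with DESeq2.

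Genes of both ends of the anteroposterior axis were among those that rose. Of 10 tested anterior genes 4 were higher and 2 lower (median 0.22), and of 18 genes of the posterior limb and Hedgehog response 5 were higher and 2 lower (median 0.24). On the anterior side Gli3, the main repressor of Hedgehog targets, was at 145 against 106 CPM, 81.1 against 74.1 CPM and 98.7 against 82.8 CPM (0.33), and Alx4 was higher by 0.62, while Alx1 and Epha3 were lower. The calls of Gli3 and Alx4 were lost without B6_E9.5, and those of Alx4 and Epha3 with DESeq2, by which 1 anterior gene was higher (Gli3) and 1 lower (Alx1). On the posterior side Hoxd13 was at 9.22 against 5.58 CPM, 48.5 against 32.2 CPM and 13.6 against 10.3 CPM (0.59 ± 0.09, edgeR adjusted p = 0.000658). The Hedgehog co-receptor Gas1 was higher by 0.26 and the Hedgehog target Gli1 by 0.92. Hand2, the posterior factor upstream of Shh, was at 29.8 against 59.8 CPM in B6_E9.5 but 75.4 against 77.3 CPM and 23.7 against 27.0 CPM in the others, and its call (-0.53, edgeR adjusted p = 0.0232) was lost without B6_E9.5 and with DESeq2. Shh itself was at 2.83 CPM or less on every side and did not pass the test (edgeR adjusted p = 0.470).

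Along the proximodistal axis 8 of 15 tested distal genes were higher and 1 lower (median 0.27), and 6 of 19 genes of proximal limb and retinoic acid were higher and 6 lower (median 0.02). Distal genes that rose included Msx1, Lhx9 and Hoxd13 (above), the zinc-finger factors Sall1 (0.54) and Sall3 (0.27), and Mycn (0.39), a MYC-family factor of growing mesenchyme. The proximal factors Meis1, Meis2 and Meis3 were lower, Meis1 not without 129_E9.5. Meis2 was at 296 against 349 CPM, 170 against 224 CPM and 173 against 245 CPM (-0.36 ± 0.05, edgeR adjusted p = 0.000303). Retinoic acid genes split, with the binding protein Crabp2 (0.40) and the breakdown enzyme Cyp26b1 (0.56) higher and the synthesis enzyme Aldh1a2 (-1.67) lower. Crabp2 was at 634 to 689 CPM on the positive side and 446 to 556 CPM on the negative one. Shox2, a proximal limb homeobox factor that was higher, stood at 94.5 against 49.3 CPM, 364 against 281 CPM and 133 against 113 CPM (0.53 ± 0.09, edgeR adjusted p = 0.00176). The calls of Sall3, Meis1 and Shox2 were lost with DESeq2 (adjusted p = 0.414, 0.0868 and 0.322), by which 5 distal genes were higher. After thinning and reassignment 2 of 14 distal genes were higher and 1 lower. Of the 19 proximal and retinoic acid genes 2 were then higher (Crabp2 and Shox2) and 1 lower (Crabp1), with a median of -0.15. No Meis gene was called there. In cells of 4000 to 8000 UMIs Meis3 alone was called lower on that list. The calls of Meis1, Meis2 and Hoxd13 were lost in cells of at least 8000 UMIs.

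Of 10 tested Hox genes of the 5′ ends of the clusters (15 listed) 4 were higher and 1 lower (median 0.31), and of 23 genes of the 3′ ends 4 were higher and 2 lower (median 0.16). The difference between these lists was not tested. Hoxa9 was at 299 against 218 CPM, 198 against 180.4 CPM and 324 against 269 CPM (0.31 ± 0.05, edgeR adjusted p = 0.00162). Hoxd11 rose by 0.32 and Hoxa11 by 0.37, and the call of Hoxa11 was lost without B6_E9.5. Hoxb9 was lower (-0.26), a call that was lost without either E9.5 library. With DESeq2 both of these calls were lost, and of the 3′ genes 1 was higher (Hoxa7) and 1 lower (Hoxc8). Of the 3′ genes Hoxa7 rose by 0.26, while Hoxc8 fell by 0.98 on the log2 scale. After thinning and reassignment 1 of the 10 genes at the 5′ end was called, Hoxa9.

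BMP and FGF genes changed in both directions. Of 24 tested BMP genes 4 were higher and 5 lower (median -0.09). The ligand Bmp7 (0.44), the receptor Acvr2b (0.17) and Grem1 rose, the ligand Bmp5 (-1.33) and the pseudoreceptor Bambi (-0.63) fell. The call of Acvr2b was lost without B6_E9.5. With DESeq2 3 BMP genes were higher and 0 lower (3 lower at an unadjusted p under 0.05), and the calls of Acvr2b, Bmp5, Bambi and Id3 were lost. Id3, a BMP target that inhibits helix-loop-helix factors, was at 242 against 445 CPM in B6_E9.5, 378 against 375 CPM in B6_E10.5 and 264 against 426 CPM in 129_E9.5 (-0.55 ± 0.10, edgeR adjusted p = 0.00303). The sides were thus level at E10.5 and apart in both E9.5 libraries. Bmp4 was at 81.9 against 76.7 CPM, 126 against 62.1 CPM and 98.0 against 87.5 CPM, and missed the threshold (0.36, edgeR adjusted p = 0.0660). Of 19 tested FGF genes the feedback inhibitors Spry1 (0.41) and Spry4 (0.53) and the target Etv4 (0.33) were higher, and the receptor Fgfr2 (-0.73) was lower. The 4 FGF calls were lost without B6_E9.5, and those of Spry1 and Spry4 also with DESeq2 (adjusted p = 0.0556 and 0.388). Fgf10, the mesenchymal ligand of limb outgrowth, was at 44.0 against 50.4 CPM, 14.1 against 20.5 CPM and 21.1 against 26.4 CPM, just short of the threshold (-0.26, edgeR adjusted p = 0.0507).

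Axon guidance genes are of interest because dorsal and ventral motor axons choose their path in the limb. Of 41 tested genes 5 were higher and 9 lower (median -0.08). Epha4, the receptor that guides dorsal motor axons and is also made by limb mesenchyme, was at 28.0 against 25.6 CPM in B6_E9.5, 223 against 160 CPM in B6_E10.5 and 49.7 against 37.6 CPM in 129_E9.5. It was higher in 3 of 3 libraries, by 0.34 ± 0.06 (edgeR adjusted p = 0.00314). Ntn1, the attractant netrin, was low, at 2.23 against 1.14 CPM, 7.07 against 3.95 CPM and 1.72 against 0.645 CPM (1.00 ± 0.23, edgeR adjusted p = 0.0150), and its call was lost without B6_E9.5 and with DESeq2. Efnb2 (above), Epha7 (0.49) and Sema5a (0.43) were higher. The ephrins Efnb1 (-0.32), Efnb3 (-0.39) and Efna5 (-0.24), the netrin receptors Unc5b (-0.47) and Unc5c (-1.54), and the semaphorin receptor Nrp1 (-0.72) were among the lower ones. Unc5c was at 8.63 against 32.3 CPM, 21.5 against 32.7 CPM and 3.12 against 8.34 CPM. The call of Efna5 was lost without either E9.5 library. With DESeq2 4 guidance genes were higher and 4 lower, and the calls of Efna5 and Efnb3 were lost. After thinning and reassignment 2 of 39 were higher (Efnb2 and Nrp2) and 1 lower (Unc5c), so that Epha4 was not called. Epha4 also lost its call with positive cells set from 3 Lmx1b UMIs, and kept it in cells of 4000 to 8000 UMIs.

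Among 23 cell adhesion genes 4 were higher and 1 lower (median 0.03). The classical cadherin Cdh6 was at 36.1 against 15.7 CPM, 23.6 against 15.7 CPM and 19.1 against 8.45 CPM, with no overlap (1.08 ± 0.10, edgeR adjusted p = 9.37e-06). The protocadherin Pcdh19 was at 12.9 against 3.83 CPM, 12.8 against 6.42 CPM and 14.7 against 8.36 CPM, also apart (1.27 ± 0.16, edgeR adjusted p = 0.000119). Pcdh10 was higher by 1.43, at a mean under 20 CPM. These 3 genes were also called higher after thinning and reassignment. Of 14 Notch genes 0 were higher and 3 lower, the ligand Jag1 (-0.95) and the targets Hes1 (-0.51) and Hey2 (-1.72). Hes1 was at 31.8 against 49.2 CPM, 58.9 against 73.9 CPM and 43.4 against 62.2 CPM. The calls of Jag1 and Hey2 were lost without B6_E9.5 and with DESeq2.

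Of 31 limb bud transcription factors 9 were higher and 7 lower (median 0.02), and with DESeq2 6 and 4. Twist2 and Zfhx4 rose in 3 of 3 libraries, by 0.45 and 0.49, and Zfhx4 was at 74.0 against 54.3 CPM, 204 against 143 CPM and 106 against 74.2 CPM. The forelimb factor Tbx5 was at 68.7 against 73.6 CPM, 134 against 136 CPM and 75.8 against 77.6 CPM, a change of -0.05 ± 0.05 (edgeR adjusted p = 0.638). The mesenchymal factor Prrx1 changed by 0.09 ± 0.05 (edgeR adjusted p = 0.395). Both are general markers of limb mesenchyme and neither passed the test.

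Of 25 tested genes of tendon, connective tissue and matrix 3 were higher and 6 lower (median -0.36). With DESeq2 2 were higher and 4 lower, and the calls of Tnc and Fn1 were lost. After thinning and reassignment 1 of 23 was higher (Tcf4) and 1 lower (Sparc), with a median of -0.09. In cells of 4000 to 8000 UMIs the same 2 genes were called, of 18 tested, with a median of 0.02. Col1a1, a chain of type I collagen, was at 11.9 against 28.3 CPM, 22.2 against 34.9 CPM and 7.97 against 10.6 CPM (-0.97 ± 0.12, edgeR adjusted p = 0.000107). Sparc, a matrix glycoprotein, was at 4.61 against 36.1 CPM, 11.1 against 19.7 CPM and 5.16 against 24.99 CPM (-2.50). The listed Tcf4 is the gene on chromosome 18 and not the connective tissue factor Tcf7l2 on chromosome 19, which was lower (-0.54). Tcf4 was higher, at 214 against 141 CPM, 459 against 320 CPM and 194 against 145 CPM (0.52 ± 0.04, edgeR adjusted p = 2.29e-06). Osr1, a connective tissue factor, was at 69.7 against 48.0 CPM in B6_E10.5 and rose by 0.42, a call that was lost without that library and with DESeq2. The tendon factor Scx, at 68.3 against 78.0 CPM in B6_E10.5 and at most 6.49 CPM at E9.5, missed the threshold (-0.48, edgeR adjusted p = 0.0790). The small proteoglycans Lum (at most 6.69 CPM) and Dcn (at most 0.919 CPM) did not pass the test either. Of 12 cartilage genes Sox6 was higher and Col2a1 lower, the former not without 129_E9.5 and neither with DESeq2, and Sox9, the master factor of cartilage, was at 18.98 against 18.8 CPM, 137 against 190 CPM and 26.6 against 28.5 CPM (-0.21, edgeR adjusted p = 0.182).

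Cell cycle genes differed between the sides, whose cells also differ in depth. Of 20 genes of G2 and M phase 10 were higher and 0 lower (median 0.19), and of 20 genes of S phase 0 were higher and 4 lower (median -0.10). Top2a, the topoisomerase of dividing cells, was at 336 against 299 CPM, 656 against 505 CPM and 444 against 385 CPM (0.25 ± 0.04, edgeR adjusted p = 0.000904). Rrm2, a subunit of ribonucleotide reductase, was at 313 against 344 CPM, 325 against 369 CPM and 375 against 478 CPM (-0.22 ± 0.04, edgeR adjusted p = 0.00617). In cells thinned to 4000 UMIs with the sides set by all UMIs, 10 of 20 G2 and M genes were again higher and 4 of 20 S-phase genes lower. That fit keeps the same cells and sides, so that its agreement is largely set in advance. With the sides reassigned, where the depth gap is smaller or turned and calls over all genes fell to 0.361% higher and 0.731% lower, 1 of 20 G2 and M genes was higher (Top2a) and 1 of 20 S-phase genes lower (Fen1). The change of Top2a was 0.37 in cells of 4000 to 8000 UMIs (edgeR adjusted p = 0.0137), and in cells of at least 8000 UMIs it missed the threshold (0.13, edgeR adjusted p = 0.0749). With DESeq2 7 G2 and M genes were higher and 3 S-phase genes lower.

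Of the dissociation and heat stress list 0 of 17 genes were higher and 3 lower, Jun, Fosb and Hspa8, and of 20 oncofetal and imprinted growth genes 0 were higher and 4 lower, Cdkn1c, Dlk1, Igf2r and Plagl1. Dlk1, an imprinted inhibitor of differentiation, was at 239 against 367 CPM, 94.2 against 140.3 CPM and 188 against 221 CPM (-0.46 ± 0.06, edgeR adjusted p = 0.000207). Fosb, Igf2r and Plagl1 lost their calls without B6_E9.5 and with DESeq2. The glycolysis and hypoxia list had 1 of 19 genes higher (Hk2) and the housekeeping list 1 of 14 lower (Actb), and both of these calls were lost without B6_E9.5 and with DESeq2. None of the 4 Y-linked genes was called.

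Genes of mesothelium and of the lateral plate outside the bud were read as markers of other cells. Of 8 tested marker genes 5 were lower (Upk3b, Hand1, Wt1, Lrrn4 and Gata6) and 2 higher (Tbx18 and Osr1, which limb mesenchyme also expresses), with a median of -2.82. None of these 7 calls was made with DESeq2, by which 0 of the 8 genes were higher and 0 lower at an adjusted p under 0.05, 2 and 2 at an unadjusted one, with a median of -1.76. The call of Tbx18 was lost without B6_E9.5, and that of Osr1 without B6_E10.5. Upk3b, a mesothelial surface protein, was at 0.402 against 9.498 CPM in B6_E9.5 and had 0 UMIs on the positive side of 129_E9.5, where the negative side was at 4.19 CPM. In B6_E10.5 it had 0 UMIs on both sides. Wnt2, a ligand of the flank and of lung mesoderm, was at 0.878 against 20.8 CPM in B6_E9.5, with 0 UMIs against 0.316 CPM and 0 UMIs against 6.15 CPM in the others. The summed level of the 11 markers with a row was 46.5 against 96.6 CPM, 192 against 151 CPM and 50.5 against 66.6 CPM. This sum was lower on the positive side at E9.5 only. It includes Tbx18 and Osr1, and therefore does not measure mesothelium and flank cells alone. Among the positive cells Foxf1 had 0 UMIs in all 3 libraries, and Gata4 in B6_E10.5 and 129_E9.5. Both genes had UMIs on every negative side, while Tcf21 had 0 on both sides of B6_E10.5 and 129_E9.5. The positive sums were smaller, at 27337626, 2971513 and 6400691 UMIs against 44642185, 66359715 and 46530182. A count of 0 on the positive side therefore does not show absence. Cells with a UMI of Wt1, Upk3b, Lrrn4, Hand1, Gata4 or Foxf1 made up 11.1% of negative and 2.001% of positive cells of B6_E9.5. At E10.5 the shares were 1.92% and 2.41%, and for strain 129 they were 3.26% and 0.328%.

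Without these cells, an alternative chosen after seeing the data, 297 genes were higher and 290 lower (2.39% and 2.34% of 12402). Of the genes called with all cells, 287 of 345 higher and 262 of the 376 lower ones that could be tested were called again. All 14 of the largest rises and 13 of the 14 largest falls remained called, Runx1t1 being the exception. Grem1 was at 1.20, Axin2 at 0.77, Gsc at -1.69 and Sfrp1 at -0.83 (log2 fold changes). The matrix list kept its 3 higher and 6 lower genes, with a median of -0.20.

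Each cell was also thinned to 4000 UMIs. With the sides still set by all UMIs, 230 genes were higher and 263 lower (2.07% and 2.37% of 11085), and all 28 genes of the largest changes remained called. Random thinning keeps each cell's expected composition, and the cells and sides were the same. This agreement is therefore largely set in advance and cannot show whether the selection of deeper cells matters. With the sides reassigned by the thinned Lmx1b counts, only 274, 81 and 146 cells were positive in the 3 libraries, and 40 genes were higher and 81 lower (0.361% and 0.731% of 11083). Their full depths were then 12933.5 against 15751, 7935 against 6983, and 8892.5 against 7810 UMIs (medians of positive and negative cells), which turned the depth gap around in B6_E9.5. Of the genes called with all UMIs, 316 of the 342 higher and 324 of the 343 lower ones that could be tested kept their sign, and 32 and 48 were called again. Called again were 12 of the 14 largest rises (not a or Nkd2) and 10 of the 14 largest falls (not Gsc, Runx1t1, Tenm4 or Col25a1). Grem1 rose by 1.33 and Axin2 by 0.90, Ebf1 changed by -1.23 and Sfrp1 by -1.07, while Gsc was at -0.78 (edgeR adjusted p = 0.0621). In cells of 4000 to 8000 UMIs, 58 genes were higher and 43 lower (0.576% and 0.427% of 10066), among them 13 of the 14 largest rises and 10 of the 14 largest falls. In cells of at least 8000 UMIs the counts were 200 higher and 242 lower (1.66% and 2.01% of 12049).

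**Figure D5:**
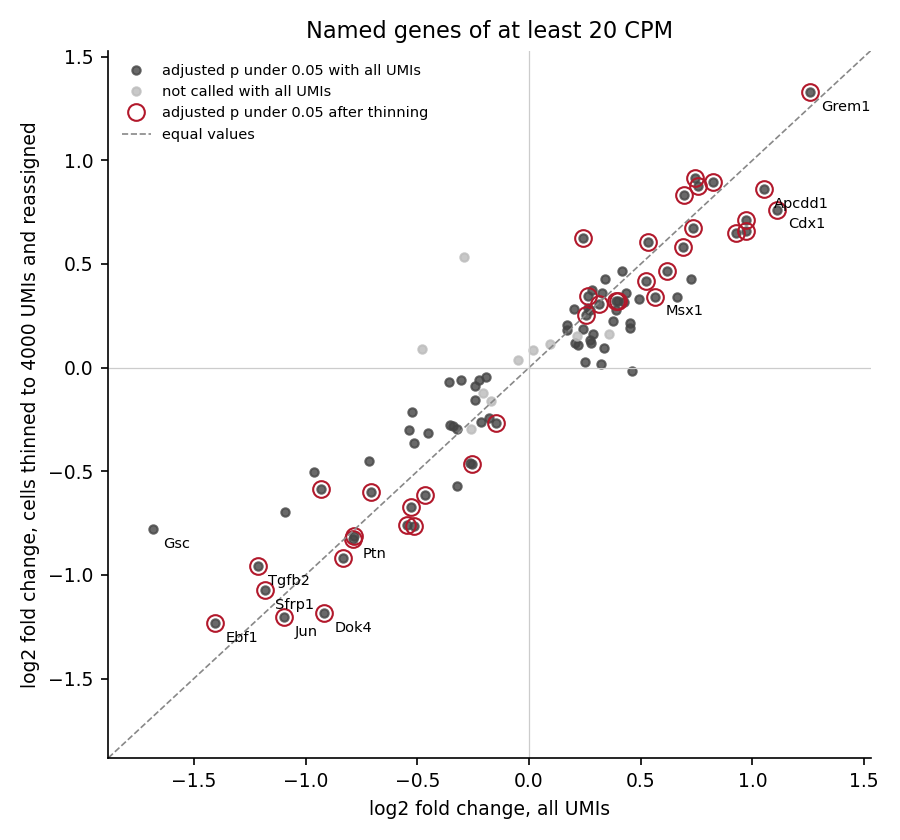
Log2 fold change of the 97 named genes of at least 20 CPM with all UMIs (x axis) and in cells thinned to 4000 UMIs whose sides were reassigned from the thinned Lmx1b counts (y axis). Dark points passed the adjusted p threshold with all UMIs, and red rings mark those that passed after thinning. Of 87 genes called with all UMIs, 86 lie on the same side of zero on both axes and 38 are ringed, with Gsc nearer to zero after thinning (-1.68 to -0.78).

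Promoters of the changed genes were read for 2 short words because the compared cells differ in a homeodomain factor and in WNT targets. The windows run from 250 bases before to 50 bases after the start in RefSeq (GRCm38.p6), and 9825 of 12516 tested genes had one. The homeodomain core TAATTA, on either strand, was present in 3.02% of all windows, in 4.12% of those of higher genes (11 of 267) and in 1.42% of those of lower genes (4 of 282). The TCF and LEF word CTTTGATC, on either strand, was present in 0.784% of all, 2.25% of higher (6 of 267) and 1.06% of lower genes (3 of 282). These few matches are a description and say nothing of binding. Neither word contains the other. Of the higher genes with a match, Emx2, a homeobox factor that limb girdle formation needs (chr19:59458440-59458739, plus strand, log2 fold change 0.83), and Dach1 (chr14:98169716-98170015, minus strand, 0.69) are shown, 5′ to 3′, with the matching word in capitals at bases 287 to 292 and 261 to 268 of the window.
Emx2: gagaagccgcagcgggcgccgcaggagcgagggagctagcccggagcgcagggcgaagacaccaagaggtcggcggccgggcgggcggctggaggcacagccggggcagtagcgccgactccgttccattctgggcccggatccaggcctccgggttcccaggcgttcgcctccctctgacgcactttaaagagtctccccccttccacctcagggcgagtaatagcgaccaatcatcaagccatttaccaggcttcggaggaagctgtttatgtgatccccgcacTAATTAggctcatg
Dach1: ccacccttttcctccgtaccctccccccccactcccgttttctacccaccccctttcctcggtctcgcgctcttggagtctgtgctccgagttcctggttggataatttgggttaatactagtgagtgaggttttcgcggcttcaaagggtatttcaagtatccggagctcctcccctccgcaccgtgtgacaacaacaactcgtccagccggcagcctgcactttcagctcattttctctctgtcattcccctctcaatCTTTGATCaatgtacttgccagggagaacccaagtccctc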

How the data were processed

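Forelimb bud cells of 3 wild-type libraries were captured with the 3′ version 2 kit of 10x Genomics, per the labels' protocols. All values start from the UMI count matrix deposited by the authors (15122 genes, 43950 cells, not normalized, per the file headers), joined to their table of cluster numbers. Cell Ranger 3 and the build mm10 come from the submitters' processing notes, while the annotation release and the clustering method used are not given in the sources used here. Reads from 3′ ends do not separate isoforms, and overlapping genes may share them.

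Counts were summed per library and side (6 sums, Lmx1b left out of the fit) and tested with edgeR 4.0.16 in R 4.3.3: TMM factors, filterByExpr by side, a quasi-likelihood test with the library as a block, and Benjamini-Hochberg adjustment at 0.05 over all genes tested. The replicate block pairs the sides by construction, because both come from the same reaction. CPM values are UMIs per 1000000 UMIs of a side and carry exact Poisson intervals, and shares carry exact Clopper-Pearson intervals. The summed depth was 2971513 to 66359715 UMIs per side and library. The script was tested on simulated data of 12543 genes: all 100 genes changed by 0.5 and all 100 changed by 1 on the log2 scale were recovered, with 3.38% false calls. The changed genes were drawn only from those with a mean of at least 20 CPM, and all genes had the same dispersion. These rates check the script and do not hold for genes below 20 CPM or for genes of larger spread between libraries.

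Genes named were the 14 largest rises and 14 largest falls among called genes with 1 direction in 3 of 3 libraries and a mean of at least 20 CPM, up to 4 called members with most UMIs of each of 25 gene lists, and 33 fixed genes. Further list members, and the markers Krt8 and Krt18, Ebf2 and Ebf3 among them, are named with the count that holds them and were chosen after their values were seen. Kera, 1 of the fixed genes, and Hoxa13, which was too low, were not tested. Members, lists and tests were chosen with earlier results of these data known. Doublets were not called. Cells with UMIs of other types' markers were left out as an alternative. Alternatives were DESeq2 1.42.0, limma-voom (limma 3.58.1), other filters, depths and thresholds, and each library left out, which leaves 1 residual degree of freedom and leans on the spread pooled over genes. One called list member is counted but not reported here by name.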

Additional observations from a re-analysis of the deposited data

Results flagged for a closer look

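Lmx1b UMIs were also counted in the ectoderm, which the comparison did not use. In ectodermal cells (at least 4000 UMIs) of B6_E9.5 the gene stood at 7.80 CPM, against 63.3 CPM in the mesenchyme. At E10.5 it stood at 9.495 against 21.6 CPM, and in strain 129 at 6.57 against 44.1 CPM. At least 1 UMI was found in 9.35%, 6.65% and 3.69% of ectodermal cells and in 2.99%, 1.92% and 2.86% of endothelial cells. At least 2 UMIs were found in 5, 5 and 3 ectodermal cells.

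Id1 and Rspo3 moved one way in both E9.5 libraries and the other way at E10.5. Id1, an inhibitor of helix-loop-helix factors, had a ratio of positive to negative CPM of 0.733 in B6_E9.5 and 0.777 in 129_E9.5 but 1.08 in B6_E10.5 (95% interval 1.01 to 1.16). Rspo3, an R-spondin, had ratios of 0.422 and 0.730 at E9.5 and 1.19 at E10.5 (1.02 to 1.38). These differences between stages were not tested, since E10.5 has 1 library.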

How the results depend on the processing

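Against 345 higher and 384 lower genes, the counts were 149 and 132 with DESeq2, 157 and 137 with a filter at a mean of 20 CPM, 40 and 81 after thinning with reassigned sides, 58 and 43 in cells of 4000 to 8000 UMIs, 200 and 242 in cells of at least 8000 UMIs, and 187 and 200 in cells of at most 16000 UMIs, the last chosen after seeing the data. With no filter on low counts 706 genes were lower. Leaving out 1 library gave 229 to 432 higher and 202 to 660 lower genes. With no replicate block, so that the paired sides of a library were treated as unrelated, edgeR called 0 genes higher and 0 lower, and 108 had an unadjusted p under 0.05, against 2251 in the paired fit. The counts moved by less than 1.5 times without TMM factors, with limma-voom, with other Lmx1b thresholds, and without cells of high mitochondrial share, other types' markers or shared barcodes. The share of positive cells moved to 4.28%, 0.786% and 1.82% after thinning, and to 25.5% in B6_E9.5 under a mitochondrial limit of 5%. Of 106 named and called genes, 72 kept their call without B6_E9.5, 102 without B6_E10.5 and 97 without 129_E9.5, and 62 kept it with DESeq2. Among 2335 values of named genes under the alternatives, 4 turned their sign where the main or the alternative fit called the gene. Lmo2 was at -0.016 after thinning with reassigned sides, and Hoxd11 at -0.10, Hk2 at -0.0086 and Actb at 0.024 in cells of 4000 to 8000 UMIs. A further 17 values turned their sign where neither fit called the gene. The cause was not tested. Positive cells were fewest in B6_E10.5, with 291 against 1549 and 610 in the E9.5 libraries, and 81 against 274 and 146 after thinning with reassigned sides.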
